A study of Mus musculus with 18 samples.

Results

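Liver maturation was measured here as the difference between PBS-treated mice of 16 weeks and of 2 weeks, over all genes of a table of RNA-seq counts. The comparison used 6 of the 18 libraries of the series: the 3 libraries of 16-week mice given PBS and the 3 libraries of 2-week mice given PBS, chosen by their labels alone. Each library holds polyadenylated liver RNA, and the design text gives 3 mice per group, kept on C57BL/6J for at least 8 generations. No transgene or deletion is named for them. The mice of these groups received PBS, the vehicle, by 7 daily intraperitoneal injections at about 8 AM, and they were killed 7.5 h after an injection. The labels do not say whether the stated age is that at the first injection or at death. The other groups of the series were mice of 8 weeks given PBS for 8 days and mice of each age given asparaginase at 3 IU per g of body weight. The labels give 2 males and 1 female at 2 weeks (replicates 1, 2 and 3 in that order) and 2 females and 1 male at 16 weeks. Nothing says that a replicate number ties mice of different ages together.

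The liver of a suckling mouse grows by cell division and feeds on a milk diet rich in fat and poor in carbohydrate. It still expresses part of the fetal programme, with alpha-fetoprotein and the imprinted genes Igf2 and H19 as its best known members, and it loses blood formation around birth. After weaning and puberty the diet turns to carbohydrate, pulses of growth hormone set sexually different gene expression, and hepatocytes divide rarely.

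The values are gene counts, given here as CPM, counts relative to library sizes scaled by the trimmed mean of M-values (TMM). "Rose" and "fell" are used of genes for which the edgeR quasi-likelihood test gave an adjusted p under 0.05, and fold changes are log2 values of 16 minus 2 weeks with their standard error (SE). In the fit 16 weeks stands for an even mix of both labelled sexes. Total counts ran from 26507374 to 27263553 at 2 weeks and from 35862867 to 45358073 at 16 weeks. Without the major urinary protein (Mup) genes and their pseudogenes they ran from 26450667 to 27226324 and from 23477411 to 27067178. Albumin, the main plasma protein and defining marker of hepatocytes, stood at 72634, 68442 and 76356 CPM at 2 weeks and at 70538, 58743 and 50104 CPM at 16 weeks, so that the tissue label held in all 6 libraries.

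Part of the 2-week libraries stand apart. Xist, the RNA that silences one X chromosome, and Ddx3y, a Y-linked gene, were both present in 2-week replicate 1 (264 and 27.9 CPM) and replicate 2 (361 and 29.0 CPM), both labelled male, whereas replicate 3 (540 and 0.416 CPM) held Xist with almost no Ddx3y. At 16 weeks the male held 0.805 CPM of Xist and 63.8 CPM of Ddx3y, and the females at least 536 CPM of Xist and at most 0.300 CPM of Ddx3y. These values do not match a library of 1 male mouse, and how they arose was not tested. No sex term was fitted at 2 weeks for this reason. Replicate 1 also lay nearer to the adults than replicates 2 and 3 in many genes. Among genes that differed by over 2-fold in a fit without it, replicate 1 had covered a median of 39.4% of the log2 distance from the other 2-week libraries to the 16-week mean for 1500 genes lower at 16 weeks, and 46.9% for 812 genes higher. Placed in the same way, replicates 2 and 3 stood at -7.1% and -15.6% for lower genes and at -5.1% and -15.6% for higher genes. What sets replicate 1 apart was not tested.

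**Figure D1:**
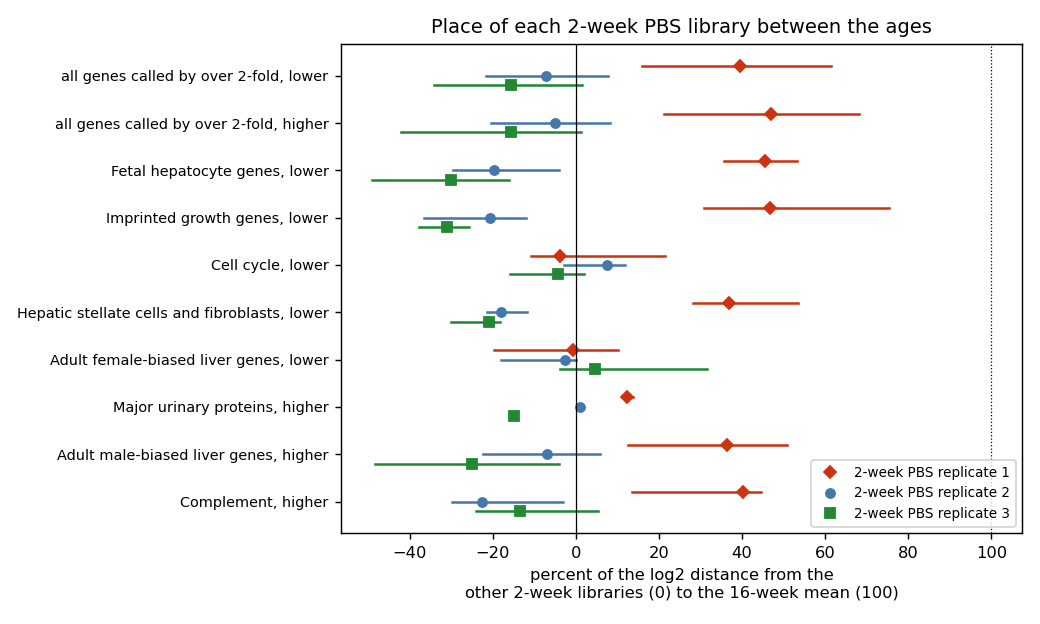
Place of each 2-week PBS library between the ages, as percent of the log2 distance (CPM + 0.1) from the mean of the other 2-week libraries (0) to the 16-week mean (100); points are medians over genes called by over 2-fold without that library and lines the range from the lower to the upper quartile of genes. Replicate 1 stands at 45.4% for fetal hepatocyte genes and at -3.9% for cell cycle genes, while replicates 2 and 3 stand at or below 7.4% in the 10 rows shown.

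Of 16213 genes tested, 1938 rose (12.0%) and 2245 fell (13.8%), so that 25.8% differed between the ages. The median log2 fold change over all genes was -0.01. With total counts in place of TMM the median was -0.81, with Mup genes and pseudogenes at 25.8% to 48.2% of the adult counts, and 2.7% of calls were higher against 46.3%. Changes below are thus relative to the bulk of genes, and the rises of Igf1, Cyp2e1, Ebp, B2m, Nfix, Rxra and Thrb had a negative sign on total counts. Large falls outnumbered large rises: 1231 genes fell and 571 rose by over 2-fold, and 552 fell and 237 rose by over 4-fold. In 3787 of the 4183 genes called the 3 libraries of one age lay beyond the 3 of the other, against 39.7% of all genes tested. The direction was the same in the labelled females and in the labelled males taken alone for 4148 of the 4183. The calls came from these same libraries, so this agreement was largely fixed beforehand and is no separate support. The labelled males at 2 weeks are replicates 1 and 2, which held transcripts of both sexes. The number called rose to 5055 without 2-week replicate 1. It was 2574 without 2-week replicate 2, 2491 without 2-week replicate 3 and 1814 without 16-week replicate 3, the only adult male. Where more than 5 genes of a list are counted below and the count moved by over 1.5 times without 1 library, its value there is given. Counts of 5 or fewer rest on few genes, and many of them moved by as much, some to 0. Exons of some genes named below overlap those of another gene, and strand use in the counting is not given in the sources used here: Igf2, H19, Mest, Bex1, Ccna2, Cd74, Bdh1, Bmp6, Ftl1, Nfix, Prom1, Scd2, E2f8, Ccnd1, Serpina3k, Slc51b, Srebf1, Zbtb20, Xist and mt-Nd6. A total of 4 genes were at 10 CPM or more in every 16-week library and under 1 CPM in every 2-week library: the retinoic acid hydroxylase gene Cyp26a1, the NADPH oxidase gene Nox4, the serpin pseudogene Serpina4-ps1 and the predicted gene Gm13775. The reverse held for 1 gene, Akr1c18, which encodes a hydroxysteroid dehydrogenase that breaks down progesterone (chromosome 13, 4132615 to 4150654, GRCm38). Akr1c18 stood at 27.0, 30.6 and 24.1 CPM at 2 weeks and at 0.180, 0.234 and 0 CPM at 16 weeks, and it fell by 8.07 on the log2 scale (SE 0.36, adjusted p = 3.86e-08). Serpina4-ps1 varied widely at 16 weeks, at 116.5, 10.89 and 208.0 CPM (log2 9.59, SE 1.94). Its call was lost with limma-voom and without the 2-week libraries holding transcripts of both sexes.

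**Figure D2:**
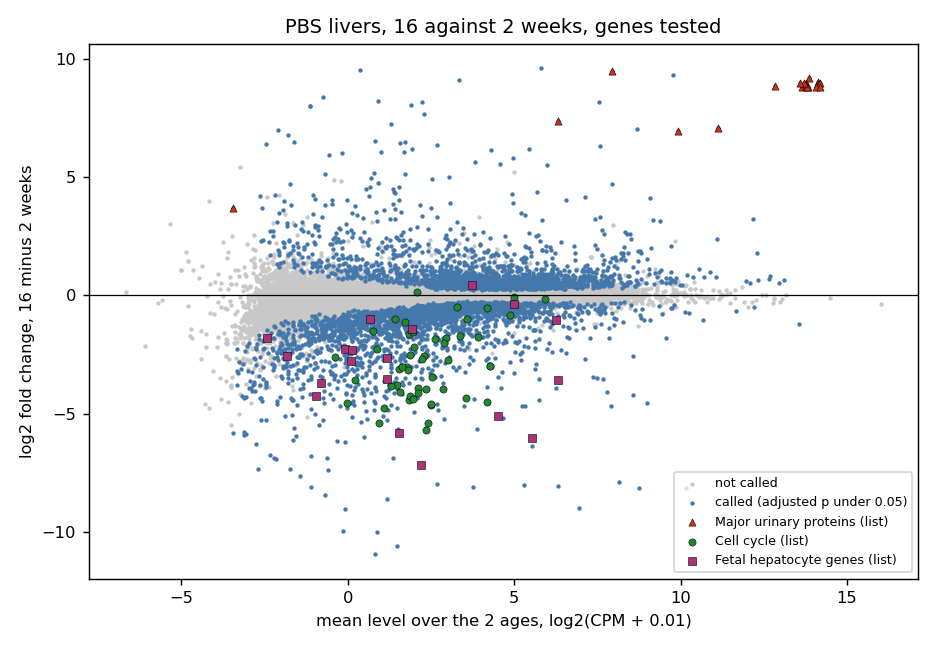
Log2 fold change of 16 against 2 weeks (vertical axis) against mean level, log2(CPM + 0.01) (horizontal axis), for the 16213 genes tested in PBS livers; blue points are the 4183 genes called. All Mup genes but 1 of low level lie at the upper right, up to 9.46, and the cell cycle and fetal genes below the zero line but for a few.

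Genes of the fetal liver fell as a group. Of 24 fetal hepatocyte genes 19 passed the filter on low counts, and 15 fell and 0 rose (median log2 -2.65, against -0.01 and 13.8% lower over all genes). Afp, alpha-fetoprotein, the albumin relative that carries fatty acids in fetal plasma (chromosome 5, 90490737 to 90508907), stood at 3.50, 130 and 139 CPM at 2 weeks and at 1.77, 2.34 and 0.910 CPM at 16 weeks. It fell by 6.04 on the log2 scale (SE 0.99, adjusted p = 0.000708), and its groups did not overlap, although 2-week replicate 1 lay close to the adults. The call was lost with limma-voom. Gpc3, a cell surface glypican of the growing liver, stood at 9.69, 53.5 and 70.5 CPM and then at 1.14, 1.55 and 1.16 CPM (log2 -5.08, SE 0.63). Replicate 1 was again the lowest of the young livers. Igf2bp3, an RNA-binding protein of fetal tissues, differed from both in that the 2-week libraries were alike: 10.8, 9.14 and 7.74 CPM, against 0.120, 0.0292 and 0.0350 CPM at 16 weeks (log2 -7.16, SE 0.43, adjusted p = 2.77e-07). Its exons overlap those of Malsu1. Bex4, Bex1, Mdk, Igf2bp2 and Cd24a fell too, by between 5.80 and 1.41 on the log2 scale, with the call of Cd24a lost without a sex term and that of Igf2bp2 in a fit of the 6 PBS libraries alone. Spp1 (-0.35, adjusted p = 0.229), Scd2, Epcam and Sult1e1 did not pass the test. With each of the 6 libraries left out in turn, between 12 and 15 members fell.

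Imprinted genes, of which only the copy from one parent is active, include many that set fetal growth. Of 31 such genes 23 were tested, and 13 fell and 1 rose (median log2 -1.63), the rise being lost without any of 5 of the 6 libraries. H19, a long non-coding RNA of the maternal copy (chromosome 7, 142575529 to 142578143), stood at 172, 2710 and 3999 CPM at 2 weeks and at 10.4, 18.0 and 3.33 CPM at 16 weeks (log2 -8.13, SE 1.11, adjusted p = 0.000171). Its neighbour Igf2, the fetal growth factor (142650766 to 142666816), stood at 1.81, 362 and 373 CPM and then at 0.420, 0.642 and 0.490 CPM (log2 -8.96, SE 1.47, adjusted p = 0.000703), a call lost with limma-voom. Young replicate 1 held far less of both genes than the other young livers but more than any adult, so that neither gene's groups overlapped. Grb10, which curbs insulin and IGF signalling, stood at 23.5, 54.6 and 59.6 CPM and then at 3.09, 3.45 and 2.91 CPM (log2 -3.90, SE 0.34). Cdkn1c, an inhibitor of cyclin-dependent kinases, fell by 3.69, the transcription factor genes Peg3 and Plagl1 by 3.53 and 2.79, and Mest by 3.05. Igf2r, the receptor that clears Igf2, did not pass the test (log2 -0.50, adjusted p = 0.0819). At 8 weeks the PBS livers had means of 35.3 CPM for H19 and 0.873 CPM for Igf2, far below the young replicates 2 and 3.

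**Figure D3:**
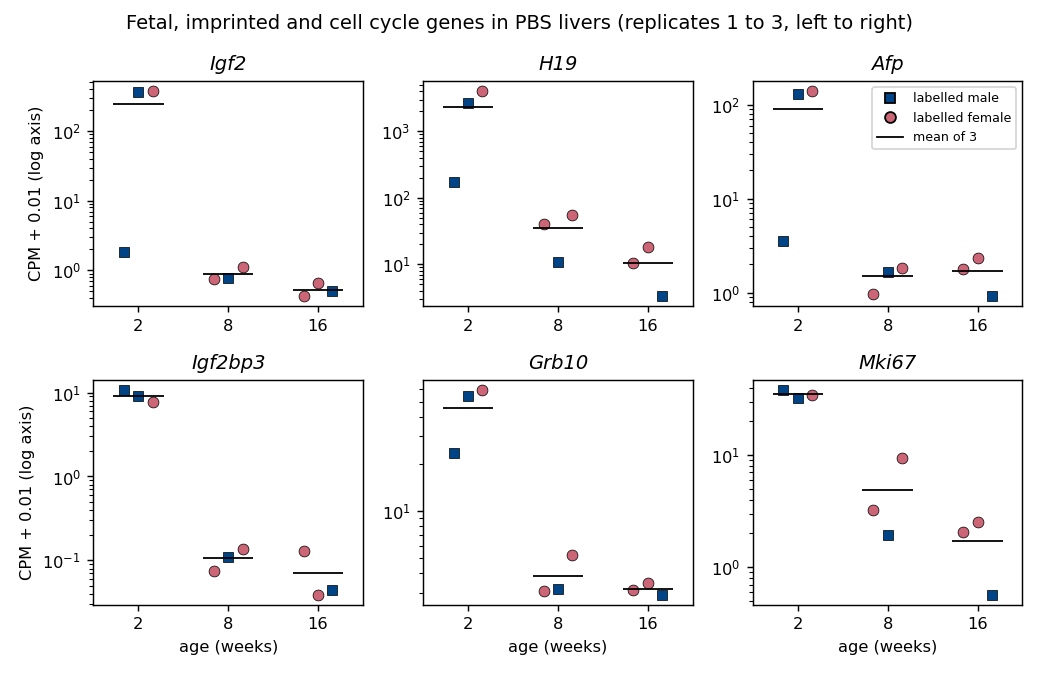
Levels in CPM + 0.01 (log axis) of 5 fetal or imprinted genes and the proliferation marker Mki67 in PBS livers of 2, 8 and 16 weeks; each point is 1 library, squares are labelled males and circles labelled females, and lines are means of 3. In Igf2, H19, Afp and Grb10 the first 2-week library lies below the other 2-week libraries, and in Igf2bp3 and Mki67 it does not.

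In growth hormone and IGF signalling both binding proteins and receptors changed. Of 29 genes of this axis 5 rose and 8 fell, 17.2% and 27.6% against 12.0% and 13.8% of all genes. Without 2-week replicate 2 or 3 or 16-week replicate 1 or 2, 3 rose. Among the ligands, Igf1, the adult growth factor of liver, stood at 365, 292 and 333 CPM at 2 weeks and at 594, 488 and 429 CPM at 16 weeks (log2 0.58, SE 0.20, adjusted p = 0.0492), a call lost without any of 5 of the 6 libraries. Ghr, the growth hormone receptor, rose by 0.83 (SE 0.15) from 281, 251 and 228 to 405, 424 and 482 CPM, and Igfals, which stabilises IGF1 in plasma, by 1.23 (SE 0.23). Igfbp1, a binding protein that fasting induces, stood at 475, 1185 and 1228 CPM and then at 67.2, 40.1 and 31.9 CPM, a fall of 4.53 on the log2 scale (SE 0.46, adjusted p = 2.53e-05). Igfbp2 and Igfbp3 fell by 1.78 and 2.15. Lepr, the leptin receptor, fell by 4.40 (SE 0.60), with 20.2, 149 and 127 CPM in the young livers against 14.6, 6.51 and 2.31 CPM. The insulin receptor gene Insr stood at 111 to 122 CPM and 114 to 120 CPM (log2 -0.01, adjusted p = 0.967).

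Cell division genes were lower almost throughout. Of 51 cell cycle genes 47 fell and 0 rose (median log2 -3.00), and between 44 and 47 fell with any 1 of the 6 libraries left out. Mki67, the proliferation marker Ki-67, stood at 38.2, 32.3 and 34.7 CPM at 2 weeks and at 2.04, 2.51 and 0.560 CPM at 16 weeks (log2 -4.49, SE 0.54, adjusted p = 6.34e-05). The 3 young livers were alike, replicate 1 included, and lay far above the adults. Cdc20, an activator of the anaphase-promoting complex, stood at 14.0, 6.94 and 9.18 CPM and then at 0.330, 0.292 and 0.105 CPM (log2 -5.67, SE 0.54). Ccnb2, a mitotic cyclin, stood at 13.3, 8.35 and 10.9 CPM and then at 0.629, 0.701 and 0.315 CPM (log2 -4.57, SE 0.43). The mitotic kinases Cdk1 and Plk1 fell by 3.97 and 4.77, and the cyclins Ccna2 and Ccnb1 by 4.64 and 5.40. The 4 members not called were Ccnd1, Tk1, E2f8 and Ccne1. Ccnd1, cyclin D1 of the G1 phase, was at 106 and 97.2 CPM in the 16-week females, 17.4 CPM in the 16-week male and 46.8 to 53.9 CPM at 2 weeks. Exons of Cdc20 overlap those of Elovl1, and exons of Tk1 those of Afmid.

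Late cell cycle genes are known to share promoter elements, the cell cycle homology region (TTTGAA), through which a repressor complex holds them off in resting cells, and CCAAT boxes, which the factor NF-Y binds. The promoter windows of 3 members that fell are shown because they carry both, with matches to TTTGAA and CCAAT in capitals (either strand, so that TTCAAA and ATTGG count too; the motifs can overlap in an end base).
Cdc20: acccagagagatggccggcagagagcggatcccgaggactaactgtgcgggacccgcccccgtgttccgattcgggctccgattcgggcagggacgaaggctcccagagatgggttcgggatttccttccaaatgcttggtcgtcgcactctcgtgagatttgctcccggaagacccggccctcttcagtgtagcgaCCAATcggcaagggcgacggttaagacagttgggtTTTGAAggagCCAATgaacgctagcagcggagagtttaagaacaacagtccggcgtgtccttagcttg
Ccnb2: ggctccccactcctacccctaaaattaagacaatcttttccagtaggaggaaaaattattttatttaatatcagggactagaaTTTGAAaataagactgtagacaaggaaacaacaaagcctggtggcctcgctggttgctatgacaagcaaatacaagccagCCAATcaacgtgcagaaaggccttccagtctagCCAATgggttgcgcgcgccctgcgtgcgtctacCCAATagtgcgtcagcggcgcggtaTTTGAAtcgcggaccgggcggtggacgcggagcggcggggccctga
Mki67: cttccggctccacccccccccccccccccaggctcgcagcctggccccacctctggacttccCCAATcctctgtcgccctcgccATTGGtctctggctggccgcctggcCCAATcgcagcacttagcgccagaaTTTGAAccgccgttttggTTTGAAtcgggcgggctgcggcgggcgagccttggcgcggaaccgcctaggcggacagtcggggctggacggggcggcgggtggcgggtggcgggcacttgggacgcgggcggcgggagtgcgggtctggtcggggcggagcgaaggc
The windows are RefSeq's on GRCm38.p6, 250 bases before to 50 bases after the start of the gene, read 5′ to 3′ on the gene's own strand, which is the minus strand in all 3: chr4:118437294-118437593 for Cdc20, chr9:70421505-70421804 for Ccnb2 and chr7:135716330-135716629 for Mki67. In Cdc20 the TTTGAA match begins 18 bases before the start and the CCAAT matches 53 and 8 bases before it. Of 47 cell cycle genes that fell, 39 had promoters in that table. TTTGAA was found in 20 of their 44 promoters (45.5%), against 17.9% of all 32851 promoters and 12.7% of those of genes tested, and CCAAT in 35 (79.5%), against 37.4%. Both were found in 19 (43.2%), against 7.0%. These are counts of letters and do not show binding.

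Sexually dimorphic expression of the adult liver was gained. All 20 Mup genes tested rose (median log2 8.84). These genes encode lipocalins that carry pheromones into urine. Mup14 (chromosome 4, 61300023 to 61304000), one of the most abundant at 16 weeks, stood at 117, 72.2 and 38.3 CPM at 2 weeks and at 18921, 23562 and 65865 CPM at 16 weeks (log2 9.01, SE 1.00, adjusted p = 3.84e-05). The adult male stood highest, and the adult females far above every young liver. Mup genes and pseudogenes took between 0.0724% and 0.214% of all counts at 2 weeks and 25.8%, 28.5% and 48.2% at 16 weeks. Many Mup genes are near-identical copies, so single values and the summed share of counts are uncertain. How reads that match several copies were counted is not given in the sources used here. If such a read was counted in each copy, the summed share is too high. For the 4 near-identical amylase copies Amy2a2 to Amy2a5, counts of the copies differed by at most 2 in any of the 6 libraries (for example 10956 in each copy in 16-week replicate 2).

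Of 28 genes known as male-biased in adult liver 24 rose and 1 fell (median log2 2.48). Nox4 stood at 0.770, 0.542 and 0.472 CPM and then from 27.6 CPM in a female to 60.3 CPM in the male (log2 6.15, SE 0.31, adjusted p = 1.12e-07). The bile acid and steroid hydroxylase gene Cyp7b1 stood at 6.04, 3.25 and 2.58 CPM at 2 weeks, at 23.8 and 26.0 CPM in the 16-week females and at 245 CPM in the 16-week male (log2 4.36, SE 0.42). C6, of the complement attack complex, stood at 6.61, 12.0 and 11.9 CPM, then at 31.1 and 31.1 CPM in females and 248 CPM in the male (log2 3.17, SE 0.25). Mup20, the pheromone darcin (chromosome 4, 62050234 to 62054158), stood at 9.42, 6.43 and 2.19 CPM, then at 91.6 and 112 CPM in females and 5592 CPM in the male (log2 6.94, SE 0.90). In each of these genes the adult male lay highest, and the adult females too lay above all 3 young livers. The steroid dehydrogenase gene Hsd3b5 (0.610 to 1.48 CPM, then 12.8, 12.8 and 235 CPM) and the transporter gene Slco1a1 rose by 6.19 and 6.30. Cyp2d9 differed from them: its females at 64.3 and 77.7 CPM lay within or below the young range of 75.2 to 135 CPM, and its rise of 1.55 rests on the male at 1326 CPM.

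Genes known as female-biased in adult liver moved the other way more often. Of 32 genes 16 fell and 3 rose, 50% and 9.38% against 13.8% and 12.0% of all genes (median log2 -1.49). Without 2-week replicate 1, 6 rose. Sult2a1, a sulfotransferase of bile acids and steroids (chromosome 7, 13796246 to 13837409), stood at 862, 832 and 826 CPM at 2 weeks, at 55.4 and 23.3 CPM in the 16-week females and at 0.175 CPM in the 16-week male (log2 -8.13, SE 0.82, adjusted p = 2.35e-05). The young livers agreed closely and the groups did not overlap. Its paralogs Sult2a2, Sult2a4 and Sult2a5 fell too, with log2 fold changes of -7.89, -7.97 and -8.03, and reads may be shared among these copies. Hao2, a hydroxy acid oxidase, stood at 68.5, 76.3 and 84.4 CPM and then at 2.10, 2.39 and 0.140 CPM (log2 -8.00, SE 0.51). Other calls came from the male alone. Cux2, a repressor of male genes in female liver, stood at 12.2, 17.8 and 18.3 CPM in the young and at 17.5 and 16.1 CPM in the adult females, which lay within that range, and at 0.315 CPM in the adult male (log2 -2.72, SE 0.39). Cyp2b13, a female P450, stood at 73.9, 45.6 and 37.5 CPM, then at 151 and 153 CPM in females and at 0.0350 CPM in the male, and its log2 fold change of -3.93 is the middle of a higher female and a lower male level (0.96 with no sex term). Cyp3a41a was called higher (log2 2.40) with 6.75 to 12.1 CPM in the young, 1349 and 812 CPM in adult females and 1.93 CPM in the male. Without a sex term the calls of Sult2a1, Sult2a2, Sult2a4, Sult2a5, Cux2, C6 and Cyp2d9 were lost. In that fit 2 female-biased genes fell and 1 rose, and 14 male-biased genes rose.

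**Figure D4:**
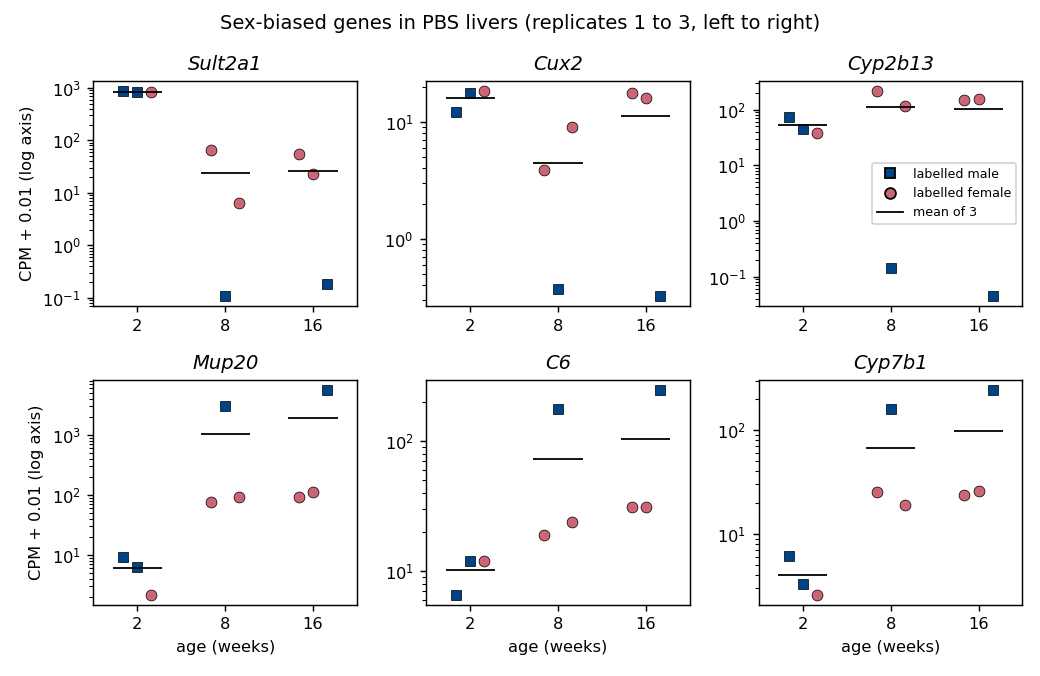
Levels in CPM + 0.01 (log axis) of 3 female-biased genes (Sult2a1, Cux2, Cyp2b13) and 3 male-biased genes (Mup20, C6, Cyp7b1) in PBS livers of 2, 8 and 16 weeks; each point is 1 library and lines are means of 3. In each gene the labelled adult male at 8 and at 16 weeks lies apart from the females.

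Part of the enzymes of drug and steroid metabolism rose, while the shares that fell lay near that of all genes. Of 43 xenobiotic P450 genes 14 rose and 7 fell, 32.6% and 16.3% against 12.0% and 13.8% of all genes. Without a sex term 9 of them rose and 4 fell. Cyp2a22 stood at 305, 354 and 322 CPM and then at 41.8, 39.8 and 23.9 CPM (log2 -3.47, SE 0.26, adjusted p = 2.93e-06). Cyp3a16, the P450 known from fetal and neonatal liver, stood at 42.8, 165 and 220 CPM and then at 32.2, 10.9 and 4.52 CPM (log2 -3.57, SE 0.66). Cyp2c38 rose from at most 1.18 CPM to 73.2, 94.0 and 18.5 CPM (log2 5.82, SE 0.58), and Cyp2c23 and Cyp2j5, which act on arachidonic acid, rose by 1.71 and 1.50. Several major P450 genes differed little: Cyp3a11 (log2 0.04, adjusted p = 0.943) overlapped between the ages, as did Cyp1a2 (0.14, adjusted p = 0.805). Cyp2e1, which oxidises ethanol and acetone, rose by 0.67 (SE 0.16), from 4429, 4278 and 3199 to 5824, 6035 and 6814 CPM, a call lost without 16-week replicate 3. Of 74 conjugation genes 32 rose and 12 fell, 43.2% and 16.2% against 12.0% and 13.8% of all genes. Without 16-week replicate 3, 19 rose, and without a sex term 23 rose and 2 fell. The glucuronosyltransferase gene Ugt3a1 stood at 17.6, 19.2 and 19.6 CPM and then at 78.2, 95.3 and 99.1 CPM (log2 2.30, SE 0.11, adjusted p = 3.86e-08). Ugt2a3, Ugt2b38 and Ugt2b5 rose by 2.14, 2.09 and 1.77.

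Part of the bile acid genes changed, among them genes of the alternative pathway and of transport. Of 40 genes 39 were tested, and 11 rose and 8 fell, 28.2% and 20.5% against 12.0% and 13.8% of all genes. Without 16-week replicate 3 the counts were 5 and 4, 6 genes rose without 2-week replicate 2 or 3, and 5 fell without 2-week replicate 2 or 16-week replicate 1. Without a sex term 9 rose and 3 fell. Cyp27a1, the first enzyme of the alternative pathway, rose by 1.39 (SE 0.24), from 194, 115 and 88.4 to 299, 327 and 378 CPM, and Cyp7b1 follows it in that pathway. Cyp7a1, the rate-limiting enzyme of the classical pathway, stood at 323, 123 and 82.0 CPM and then at 256, 472 and 145 CPM, with overlapping groups (log2 0.60, SE 0.55, adjusted p = 0.45). Cyp8b1, which directs synthesis to cholic acid, overlapped too (log2 -0.17, adjusted p = 0.737). Cyp39a1, an oxysterol hydroxylase, fell by 2.03 and the export transporter subunit gene Slc51b by 3.31, while Slc10a1, the main uptake transporter, did not pass (log2 -0.03, adjusted p = 0.935). Among uptake carriers of the other family Slco1a1 rose by 6.30 and Slco1a4 fell by 1.81, a call lost without a sex term.

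Part of the genes of lipid synthesis rose. Of 40 genes of fatty acid synthesis and storage 16 rose and 1 fell, 40% and 2.5% against 12.0% and 13.8% of all genes. Of these genes 4 rose without 16-week replicate 3, 6 and 7 without 2-week replicates 2 and 3, and 21 without 2-week replicate 1. Mlxipl, which encodes the glucose-sensing factor ChREBP, stood at 125, 112 and 105 CPM and then at 238, 238 and 264 CPM (log2 1.12, SE 0.15, adjusted p = 0.000175). Srebf1, the insulin-dependent regulator of lipogenesis, rose by 1.32 (SE 0.23) and Acacb, which makes the malonyl-CoA that blocks fatty acid import into mitochondria, by 2.05 (SE 0.49), a call lost in a fit of the 6 PBS libraries alone. Fasn, fatty acid synthase, stood at 271, 60.4 and 38.5 CPM and then at 621, 421 and 361 CPM (log2 1.81, SE 0.53, adjusted p = 0.0227), a call lost without 2-week replicate 2 or 3 or 16-week replicate 1 or 3. Scd1, the stearoyl-CoA desaturase, was at 814, 90.0 and 29.4 CPM and then at 1917, 740 and 1939 CPM (log2 2.31, adjusted p = 0.0794). Young replicate 1 lay highest of its group in Fasn, Scd1 and Acacb.

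The cholesterol genes depended on that library. Of 30 genes 1 rose (Ebp, log2 0.65, lost without any of 5 of the 6 libraries) and 1 fell (Scarb1, the HDL receptor, -0.71), but 24 rose and 1 fell without 2-week replicate 1. The share called with all libraries was 3.33% in each direction, against 12.0% and 13.8% of all genes. The summed list stood at 6670, 2064 and 1598 CPM at 2 weeks and at 4012, 5662 and 3034 CPM at 16 weeks. Hmgcs1, an early enzyme of the pathway, was at 826, 115 and 54.6 CPM and then at 224, 464 and 107 CPM, so that young replicate 1 lay above every adult and replicate 3 below every adult.

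Single genes of fat use fell by large steps, with no shift of the list (median log2 -0.06). Of 52 genes of fatty acid oxidation and ketogenesis 11 fell and 6 rose, 21.2% and 11.5% against 13.8% and 12.0% of all genes. Without 16-week replicate 3 the counts were 6 and 1, and without 2-week replicates 2 and 3 in turn 3 and 2 genes rose. Without a sex term 7 fell and 2 rose. Ppargc1a, a coactivator of the fasting response, stood at 18.6, 34.3 and 30.3 CPM and then at 8.72, 11.8 and 6.41 CPM (log2 -1.73, SE 0.24, adjusted p = 0.000169). Pdk4, which shuts glucose out of oxidation, fell by 2.66 and Bdh1, of ketone body formation, by 0.95 (SE 0.16). The omega-hydroxylase gene Cyp4a31 fell by 3.11 and Cyp4a14 by 2.57, the last call being lost without a sex term. Cpt1a, of fatty acid import into mitochondria, was at 325 to 395 CPM and then at 306 to 344 CPM (log2 -0.18, adjusted p = 0.48), and did not pass. Lpl, lipoprotein lipase, which is known in suckling but hardly in adult liver, stood at 271, 478 and 514 CPM and then at 20.2, 35.4 and 20.4 CPM (log2 -4.06, SE 0.44, adjusted p = 3.74e-05). Apoc3, which inhibits that lipase, rose by 0.94 (SE 0.17).

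In glucose metabolism few genes changed. Of 52 genes 51 were tested, and 4 rose and 9 fell, 7.84% and 17.6% against 12.0% and 13.8% of all genes (1 and 4 without 16-week replicate 3, 5 falling without 2-week replicate 3, 7 and 12 without 2-week replicate 1). Galk1, the galactokinase that handles milk sugar, fell by 1.46 (SE 0.17), from 52.4, 71.1 and 90.5 to 25.4, 26.1 and 26.4 CPM. The ages did not overlap in this gene. Pck1 (log2 -0.16, adjusted p = 0.652) and Fbp1 did not pass. Of 65 urea cycle and amino acid breakdown genes 7 rose and 13 fell, 10.8% and 20% against 12.0% and 13.8% of all genes. These counts were 0 and 3 without 16-week replicate 3, and 4 and 7 without a sex term. Without 2-week replicate 3 the counts were 3 and 6, 5 genes fell without 16-week replicate 1, and 4 rose without 2-week or 16-week replicate 2. Cps1, the entry to the urea cycle, was not called (-0.29, adjusted p = 0.187). Gldc, of glycine cleavage, fell by 1.31, and Bckdhb, of branched-chain amino acid breakdown, by 0.70. In serine, asparagine and one-carbon synthesis 9 of 32 tested genes fell and 2 rose, 28.1% and 6.25% against 13.8% and 12.0% of all genes. Of these genes 0 rose without 2-week replicate 2 and 1 without any of 4 other libraries. Asns, asparagine synthetase, stood at 3.47, 3.93 and 3.69 CPM and then at 0.749, 0.555 and 1.51 CPM (log2 -1.90, SE 0.26, adjusted p = 0.000178), and Psat1, of serine synthesis, fell by 2.70.

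Iron genes gained hepcidin. Hepcidin is the liver hormone that blocks iron release into plasma. Hamp (chromosome 7, 30942368 to 30944032) stood at 1.60, 1.41 and 1.08 CPM at 2 weeks and at 374, 289 and 461 CPM at 16 weeks (log2 8.17, SE 0.93, adjusted p = 4.24e-05). The 3 young livers agreed, replicate 1 included, and no library of one age came near the other. Its copy Hamp2 stood at 1.60, 2.74 and 1.83 CPM and then at 184, 133 and 55.5 CPM (log2 5.51, SE 0.78). The 2 genes lie side by side and are similar in sequence, so that reads may be shared. Bmp6, the signal that induces hepcidin, rose by 1.60 (SE 0.31). Tfrc, the transferrin receptor for iron uptake, stood at 82.0, 175 and 222 CPM and then at 25.3, 32.6 and 29.9 CPM (log2 -2.43, SE 0.31). Ferritin genes Fth1 (log2 -0.14, adjusted p = 0.471) and Ftl1 did not pass. Of 31 iron genes tested 11 rose and 5 fell, 35.5% and 16.1% against 12.0% and 13.8% of all genes. Without 16-week replicate 3 the counts were 4 and 2, and 6 and 7 genes rose without 2-week replicates 2 and 3.

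The promoters of both hepcidin genes are shown because the genes rose together. The human and mouse hepcidin promoter is known to answer to interleukin 6 through a STAT site and to bone morphogenetic proteins through a GGCGCC element. Capitals mark TTCTTGGAA and GGCGCC (either strand; the letters of the motifs cannot overlap).
Hamp: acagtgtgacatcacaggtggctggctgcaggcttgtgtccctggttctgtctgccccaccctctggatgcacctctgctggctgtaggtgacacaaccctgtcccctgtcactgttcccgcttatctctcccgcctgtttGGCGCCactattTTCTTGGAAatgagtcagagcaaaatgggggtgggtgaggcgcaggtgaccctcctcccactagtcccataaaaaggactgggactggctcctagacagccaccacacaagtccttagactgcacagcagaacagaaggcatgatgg
Hamp2: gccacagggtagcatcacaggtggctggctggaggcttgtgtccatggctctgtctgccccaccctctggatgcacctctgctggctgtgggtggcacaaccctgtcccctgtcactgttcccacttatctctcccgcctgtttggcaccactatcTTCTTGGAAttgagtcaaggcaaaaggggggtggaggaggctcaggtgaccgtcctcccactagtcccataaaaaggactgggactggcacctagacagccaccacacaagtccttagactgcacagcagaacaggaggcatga
These RefSeq windows on GRCm38.p6 lie on the minus strand at chr7:30943980-30944279 for Hamp and chr7:30924132-30924431 for Hamp2. TTCTTGGAA begins 97 bases before the start in Hamp and 94 bases before it in Hamp2, and 0.4% of all promoters hold it (0.3% of those of genes tested). GGCGCC, found in 11.9% of all promoters and 19.3% of those of genes tested, begins 109 bases before the start in Hamp and has no match in the Hamp2 window.

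Of secreted defence proteins, complement genes rose in part and acute phase genes went both ways. Of 34 complement genes 32 were tested, and 17 (53.1%) rose, against 12.0% of all genes, and 0 fell (median log2 0.55). C9, which forms the pore of the attack complex (chromosome 15, 6445327 to 6498751), stood at 45.9, 33.1 and 34.5 CPM and then at 205, 301 and 535 CPM (log2 3.32, SE 0.29, adjusted p = 7.77e-06). C8a and C8b, of the same complex, rose by 1.77 and 1.95, and Serping1, the C1 inhibitor, by 1.19. C3, the central component, stood at 5457 to 6653 CPM and at 4780 to 7442 CPM, with overlapping groups (log2 0.00, adjusted p = 0.992). Of 30 acute phase genes 5 rose and 8 fell, 16.7% and 26.7% against 12.0% and 13.8% of all genes. Without 2-week replicate 1, 9 rose, and without 16-week replicate 3, 3 fell. Serpina3n, a protease inhibitor, fell by 0.97 (SE 0.21) and Lbp, which binds bacterial lipopolysaccharide, by 0.91 (SE 0.20). Of 35 clotting genes tested 2 rose and 7 fell, 5.71% and 20% against 12.0% and 13.8% of all genes. Without 16-week replicate 3, 3 fell, and 4 fell without 2-week replicate 2 or 3. The fibrinogen genes Fga, Fgb and Fgg, among the most abundant of the list, differed by at most 0.09. Among plasma carriers the murinoglobulin genes Mug1 and Mug2 rose by 2.37 and 3.19, with 1354, 557 and 293 CPM of Mug1 at 2 weeks and 3502, 2875 and 4410 CPM at 16 weeks. Serpina3k rose by 3.24 (2080, 526 and 318 CPM, then 8678, 7158 and 8887 CPM), and Pigr, the receptor that moves immunoglobulin A into bile, by 4.11 (110, 48.0 and 16.9 CPM, then 1075, 1055 and 966 CPM). Young replicate 1 was the highest of its group in these 3 genes. Ahsg, fetuin A, stood at 10427, 16995 and 21718 CPM and then at 9309, 8125 and 5761 CPM (log2 -1.20, SE 0.27), a call lost without 16-week replicate 3.

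Some regulators rose. Of 53 liver transcription factors and nuclear receptors 14 rose and 3 fell, 26.4% and 5.66% against 12.0% and 13.8% of all genes. These counts were 7 and 1 without 16-week replicate 3 and 9 and 0 without 2-week replicate 2. Zhx2, a repressor of Afp and H19 after birth, rose by 0.97 (SE 0.11) from 6.34, 6.07 and 6.05 to 11.4, 10.5 and 13.4 CPM, Zbtb20, another repressor of Afp, by 1.12, and Cebpa, a driver of hepatocyte differentiation, by 0.80. Nfix, Rxra and Thrb rose by 0.78, 0.49 and 0.49. Among clock genes 4 of 22 rose and 4 fell, 18.2% each against 12.0% and 13.8% of all genes. The counts were 8 and 5 without 2-week replicate 1, and 1 and 2 without 16-week replicate 3. Without 2-week replicate 2 or 3 or 16-week replicate 1, 2 rose. Arntl, the core activator BMAL1, was at 0.770, 9.08 and 15.8 CPM at 2 weeks and at 0.569, 0.905 and 0.805 CPM at 16 weeks (log2 -3.51, SE 0.74), with replicate 1 within the adult range and the call lost with limma-voom. Bhlhe41, a repressor of clock genes, rose by 3.85 (SE 0.32) from at most 0.434 CPM to 2.91, 4.03 and 7.42 CPM.

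**Figure D5:**
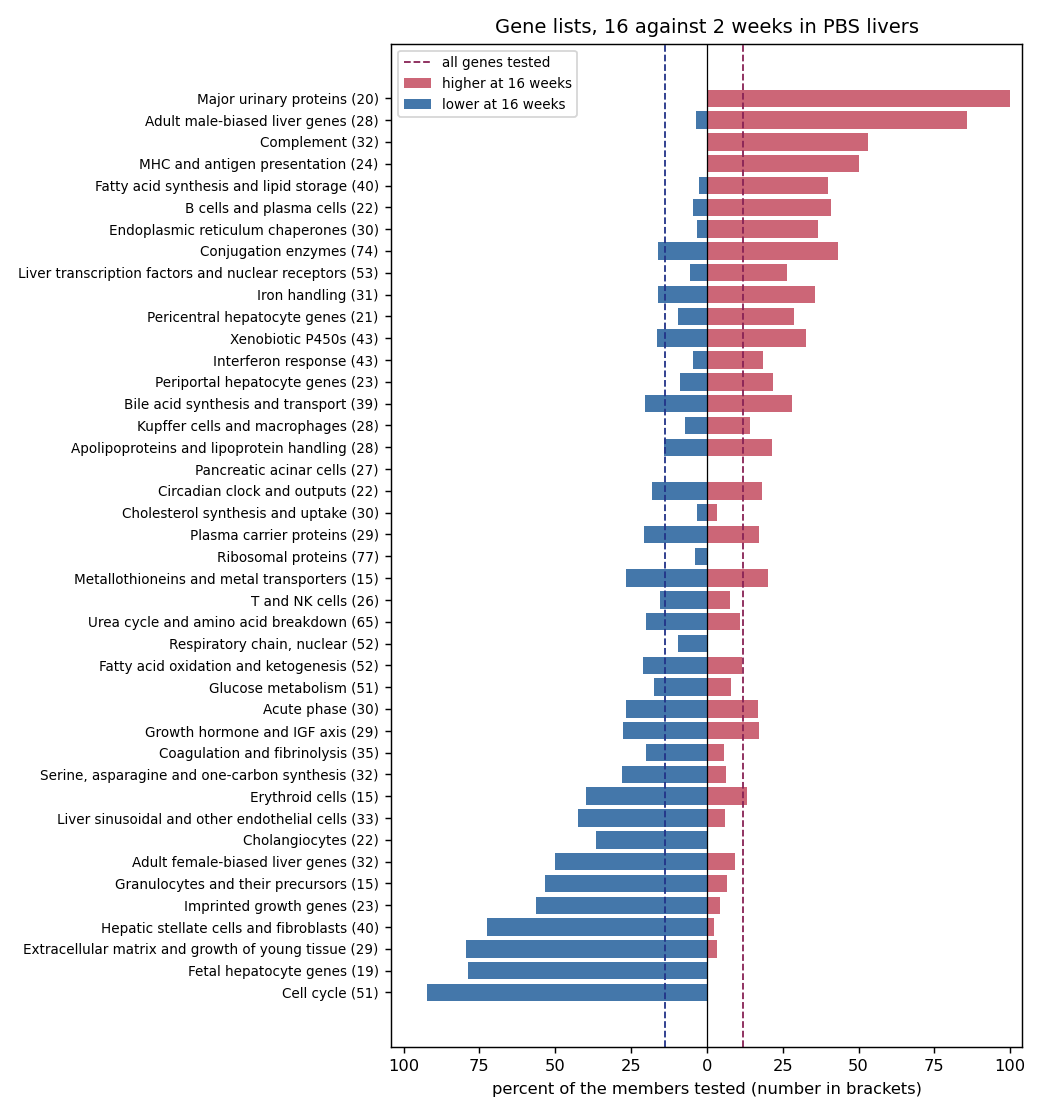
Percent of the tested members of each gene list (at least 15 tested) that rose (right) or fell (left) at 16 against 2 weeks in PBS livers; dashed lines are the shares over all genes tested, 12.0% and 13.8%. All 20 Mup genes rose, and 47 of 51 cell cycle genes fell.

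Genes of other liver cells are described next; in whole liver fewer cells of a type and less RNA per cell cannot be told apart. Of 40 stellate cell and fibroblast genes 29 fell and 1 rose (median log2 -1.62), and of 29 tested matrix genes 23 fell and 1 rose (median log2 -2.29). The single matrix rise was lost without any 1 of the 6 libraries. The lists share members. Eln, elastin, stood at 21.8, 59.1 and 67.2 CPM and then at 0.779, 2.07 and 1.30 CPM (log2 -5.19, SE 0.57, adjusted p = 3.84e-05). Col3a1, fibrillar collagen, stood at 176, 373 and 348 CPM and then at 25.1, 38.5 and 24.0 CPM (log2 -3.44, SE 0.39), and Sparc, a matrix protein of growing tissue, at 199, 247 and 275 CPM and then at 40.3, 42.8 and 34.6 CPM (log2 -2.69, SE 0.18). The groups did not overlap in these 3 genes, and young replicate 1 was the lowest of its group. Other markers of the same cells did not pass: Dcn, decorin, stood at 147, 181 and 154 CPM and at 154, 140 and 132 CPM (log2 -0.20, adjusted p = 0.142), and Bgn, Ecm1 and Rgs5 lay between -0.06 and 0.04. Of 33 endothelial genes 14 fell and 2 rose, 42.4% and 6.06% against 13.8% and 12.0% of all genes. Without 2-week replicate 1, 17 fell, without 2-week replicates 2 and 3, 6 and 5, and without 16-week replicates 1 and 3, 9 and 7. Lyve1, a receptor of sinusoids, fell by 1.72. Of 22 cholangiocyte genes 8 (36.4%) fell, against 13.8% of all genes, and 0 rose. Of these genes 4 fell without 16-week replicate 3 and 5 without 2-week replicate 3. Prom1 fell by 2.79. The bile duct factor Sox9 did not pass (log2 0.49, adjusted p = 0.224).

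Part of the blood cell genes fell. Of 15 granulocyte genes tested 8 fell and 1 rose, 53.3% and 6.67% against 13.8% and 12.0% of all genes. Without 16-week replicate 3, 4 fell. Ngp, of neutrophil granules, stood at 0.770, 1.38 and 2.50 CPM and then at 0, 0.0584 and 0.0350 CPM (log2 -6.16, SE 0.83), and S100a9 fell by 2.60. Of 15 erythroid genes tested 6 fell and 2 rose, 40% and 13.3% against 13.8% and 12.0% of all genes. Of these genes 2 fell without 2-week replicate 1 or 2 or 16-week replicate 1, and 1 without 16-week replicate 3. The globin gene Hbb-bs overlapped between the ages, at 519, 372 and 197 CPM and at 137, 221 and 100 CPM (log2 -1.26, adjusted p = 0.0374, lost without 4 of the 6 libraries), and globin copies share reads. Of 12 stem and progenitor genes tested 3 (25%) fell, against 13.8% of all genes, and 0 rose. Myb stood at 0.178 to 0.624 CPM and then at most 0.0599 CPM.

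Part of the antigen presentation genes rose. Of 25 such genes 24 were tested, and 12 (50%) rose, against 12.0% of all genes, and 0 fell (median log2 0.57). Without 2-week replicate 2, 7 rose, and without 2-week replicate 3 or 16-week replicate 1, 6 rose. Cd74, the invariant chain of MHC class II, stood at 16.9, 19.7 and 20.0 CPM and then at 101, 66.5 and 51.1 CPM (log2 1.84, SE 0.20, adjusted p = 3.84e-05), and H2-Ab1, a class II chain, at 6.78, 7.13 and 7.08 CPM and then at 40.5, 23.5 and 17.6 CPM (log2 1.82, SE 0.22). The class I genes H2-K1 and B2m rose by 1.09 and 0.72. Of 22 genes of B and plasma cells 9 rose and 1 fell, 40.9% and 4.55% against 12.0% and 13.8% of all genes. Without 2-week replicates 2 and 3 in turn 3 and 4 rose, and 4 rose without 16-week replicate 2. Jchain, of secreted immunoglobulins, stood at 0.326, 0.678 and 0.305 CPM and then at 3.06, 19.1 and 3.29 CPM (log2 3.83, SE 0.70), and Igha, of immunoglobulin A, rose by 3.66. Among 28 macrophage genes 4 rose and 2 fell, 14.3% and 7.14% against 12.0% and 13.8% of all genes. Of these genes 2 rose without 2-week or 16-week replicate 2, and 4 fell without 2-week replicate 1. Cd163, the haemoglobin scavenger receptor, rose by 1.12 (SE 0.17) and Marco fell by 1.99 (SE 0.31), while the Kupffer cell marker Clec4f was at 88.8 to 115 CPM and 87.9 to 129 CPM (log2 0.11, adjusted p = 0.712).

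Genes of neighbouring tissues varied between single libraries. The 27 pancreatic acinar genes summed to 518, 620 and 342 CPM at 2 weeks and to 15.9, 1803 and 1997 CPM at 16 weeks, and 0 were called by edgeR. The 14 skeletal muscle genes summed to 30.8 to 369 CPM and to 78.7 to 398 CPM, and 0 of the 13 tested were called. Their part in the results was not tested. Of 10 adipocyte genes tested 7 rose and 1 fell, 70% and 10% against 12.0% and 13.8% of all genes. Without 16-week replicate 3, 1 rose, and 3 or 4 rose without any of 4 other libraries. The defining marker Adipoq stood at 0.0296 to 0.333 CPM and then at 1.05, 2.83 and 1.30 CPM (log2 2.67, adjusted p = 0.0139, lost without 16-week replicate 2 or 3).

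Among genes that all cells use, part of the chaperones of the endoplasmic reticulum rose, and few genes of ribosomes and respiration were called. Of 30 chaperone genes 11 rose and 1 fell, 36.7% and 3.33% against 12.0% and 13.8% of all genes (median log2 0.53). Without 16-week replicate 3, 4 rose, without 2-week replicate 2 or 16-week replicate 1, 5, and without a sex term 6. Dnajc3, a co-chaperone, stood at 139, 124 and 142 CPM and then at 302, 219 and 302 CPM (log2 1.05, SE 0.16, adjusted p = 0.000318), while Hspa5, the main chaperone BiP, did not pass (log2 0.57, adjusted p = 0.144). Of 77 ribosomal protein genes 3 fell and 0 rose, and of 52 nuclear genes of the respiratory chain 5 fell and 0 rose, each under the 13.8% of all genes. With single libraries left out these counts ran from 0 to 2 and from 1 to 5. Mitochondrial transcripts took 10.86% to 11.91% of all counts at 2 weeks and 5.01% to 6.66% at 16 weeks. These shares are of totals in which Mup genes and pseudogenes took 25.8% to 48.2% at 16 weeks. On the TMM scale the 13 mitochondrial genes of the respiratory chain differed less (median log2 -0.20). They summed to 79265 to 91542 CPM at 2 weeks and to 69103 to 77826 CPM at 16 weeks. Of these 13 genes 3 (23.1%) fell, against 13.8% of all genes (1 without 16-week replicate 2 or 3), mt-Nd6 by 0.73.

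The asparaginase-treated mice gave the same age comparison in 6 other libraries. Their labelled sexes in replicate order were male, female and female at 2 weeks and male, male and female at 16 weeks. The last of these 2-week libraries, replicate 3, held transcripts of both sexes, as did 2-week PBS replicates 1 and 2. How this arose was not tested. There 4685 genes were called (28.9%), 2255 higher and 2430 lower. Of the 4183 genes called in PBS mice 4101 had the same sign, and the share with the same sign over all genes tested was not counted. In the same direction 2919 were called, which is 69.8% of the PBS calls and 62.3% of the asparaginase calls, and 1 was called in the opposite direction. H19 fell by 10.86, Igf2 by 8.92 and Sult2a1 by 7.29 on the log2 scale in these mice. The age difference itself differed between treatments in 3 genes (0.0185%) by edgeR, with 1018 at an unadjusted p under 0.05. These 3 genes were Mthfd2 and Psat1, of one-carbon and serine metabolism, and Pck2, the mitochondrial PEP carboxykinase. Hamp rose by 8.17 with PBS and by 3.53 with asparaginase, and Cdc20 fell by 5.67 and by 1.83, but neither difference between treatments passed the test (adjusted p = 0.228 and 0.125).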

How the data were processed

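The authors deposited a table of raw counts per gene for 18 liver libraries. TopHat, TopHat2 2.0.9, DESeq2, GRCm38 and mm10 are named without roles per the submitters' processing notes; counter, annotation and strand: not given in the sources used here. Symbols and positions come from GENCODE M21. Genes passing edgeR's filterByExpr (minimum count 10, minimum total 15) were fitted with edgeR 4.0.16 (TMM, quasi-likelihood) in R 4.3.3 in all 18 libraries together; each group had its own term, and labelled sex a term at 8 and at 16 weeks (residual degrees of freedom 10). P-values were adjusted by Benjamini-Hochberg over 16213 genes, with a threshold of 0.05. SEs were derived from the fold change and its F statistic. The fit was tested on simulated data. Alternatives used limma 3.58.1, DESeq2 1.42.0, other scalings and filters, and each library left out. The design text gives 3 mice per group, but some 2-week libraries hold transcripts of both sexes, so p-values measure the spread between these samples. Members and gene lists were chosen with earlier results of these data known. Named genes were the 15 largest called log2 fold changes in each direction with groups apart and at least 10 CPM in the higher group, up to 8 called (smallest p) and 4 uncalled (highest CPM) members of each list, the 5 most abundant genes at each age and a fixed set of textbook genes; Cyp26a1, Cyp3a41a, Hsd3b5 and Mthfd2 were named after their values were seen. A few items are not reported here. Promoters are RefSeq's on GRCm38.p6.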

Additional observations from a re-analysis of the deposited data

Results flagged for a closer look

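The age difference differed between asparaginase and PBS mice in 3 genes by the interaction term of the edgeR fit (adjusted p = 0.0361 in each). Psat1, a serine synthesis enzyme, stood at 3.32, 3.77 and 3.83 CPM at 2 weeks and at 0.689, 0.496 and 0.525 CPM at 16 weeks with PBS. With asparaginase it stood at 16.2, 11.6 and 6.81 CPM and then at 19.1, 17.6 and 20.6 CPM, and its difference in log2 fold change was 3.45. Mthfd2, a mitochondrial folate enzyme, stood at 1.33, 0.759 and 1.05 CPM and then at 0.509, 0.263 and 0.945 CPM with PBS. With asparaginase it stood at 1.24, 1.92 and 1.32 CPM and then at 8.26, 8.92 and 6.86 CPM (difference 3.15). Pck2 had a difference of 1.39, with 6.10, 6.29 and 6.47 CPM and then 3.45, 3.56 and 2.45 CPM with PBS. With asparaginase Pck2 stood at 9.97, 7.99 and 7.02 CPM and then at 9.56, 9.84 and 10.9 CPM.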

How the results depend on the processing

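No paired analysis was possible because replicate numbers were given in accession order and tie no mice together. The 4183 genes called in PBS mice (1938 higher, 2245 lower) became 2364 (928, 1436) with only the 6 PBS libraries and no sex term, and 2781 (1199 higher) with 1 sex term. They became 688 (205, 483) when tested beyond 2-fold with glmTreat and 2159 (945, 1214) at an adjusted p under 0.01. With no scaling factors 12437 genes were called (331, 12106), the median log2 fold change was -0.81, and 2.7% of calls were higher against 46.3%. With single libraries left out the counts ran from 1814 to 5055, from 820 to 2493 higher and from 994 to 2562 lower. For asparaginase mice 4685 calls became 10513 with no scaling, 644 with glmTreat and 2333 at 0.01, and ran from 2040 (without 16-week replicate 3) to 5353 with single libraries left out. The 3 genes whose age difference differed between treatments became 0 with a sex term at each age, without the 3 libraries holding transcripts of both sexes, with limma-voom, with glmTreat, after thinning to equal totals and at 0.01. They became 1 with no sex term and after thinning to equal totals outside the Mup genes (an alternative chosen after seeing the data), 12 with no filter, 16 with no scaling and 75 with DESeq2, and ran from 0 to 2 with single libraries left out. With no scaling the direction turned for B2m (-0.08), Cyp2e1 (-0.13), Ebp (-0.14), Igf1 (-0.21), Nfix (-0.01), Rxra (-0.30) and Thrb (-0.30), by the shift of all genes. Cyp2b13 turned to 0.96 with no sex term and 0.94 with only the 6 PBS libraries. The size of 19 named changes moved by over 1.5 times without 1 library, most in Ngp (3.71 times) and Serpina4-ps1 (3.34 times). Other causes were not tested.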
